A study of Mus musculus with 11 samples.

Results

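The 9 genes described here encode signals and transcription factors of the hair follicle. They are the hedgehog ligand gene *Shh*, the Wnt ligand gene *Wnt10b*, the hedgehog receptor gene *Ptch1*, the pathway effector genes *Gli1* and *Lef1*, and the transcription factor genes *Msx2*, *Dlx2*, *Dlx3* and *Foxn1*. They were taken by gene symbol from a table of 45777 genes, and all 9 were present. They were chosen on the skin libraries used here. Vehicle library 2 of these was already known to be near the imiquimod (IMQ) level for hair genes. The skin values of the 9 genes are therefore given as a description, and nothing is read from tests of them in skin.

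RNA was sequenced from skin and small intestine of BALB/c mice. The mice were shaved and, at 8 to 10 weeks of age, received 62.5 mg of cream per day. The cream was a 5% IMQ cream (Aldara) in the treated group and Vaseline in the vehicle group, and the annotation gives 5 to 8 days of application on the back and right ear. IMQ is a ligand of the receptor TLR7 that induces psoriasis-like dermatitis in mice. There were 3 vehicle libraries (1 to 3) and 3 IMQ libraries (4 to 6) of skin, and 3 vehicle libraries (7 to 9) and 2 IMQ libraries (10 and 11) of small intestine, all without a genetic modification named. The annotation does not state whether the skin RNA came from the back or the ear, the days of treatment of each mouse, or which libraries came from separate mice, so the p-values measure the spread between these samples.

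The libraries held 44995414 to 58526384 counts. Normalized counts are read counts scaled to the mean effective library size of the comparison, so the same library has slightly different values in the skin and the tissue comparison. Levels of different genes are compared by FPKM, which is scaled by transcript length. The summed level of 6 genes known to rise in IMQ-treated epidermis (*Krt6a*, *Krt6b*, *Krt16*, *S100a8*, *S100a9* and *Sprr1b*) was 17014 to 31818 normalized counts in the vehicle libraries and 382773 to 802547 in the IMQ libraries, so vehicle library 2 stood with the vehicle group for these genes. Skin vehicle library 2 also carried transcripts of intestinal epithelium, whose median share of the vehicle small intestine level was 1.04% over 13 genes, against 0% in vehicle libraries 1 and 3. The share of single genes ranged from 0.487% to 2.11%. At the median share, the small intestine would add about 27.5 of the 2336 counts of *Ptch1* in this library, about 3.64 of the 782 counts of *Gli1*, and less than 1 count for each of the other 7 genes.

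Hair follicles pass through cycles of growth, regression and rest. During growth, matrix cells at the base of the follicle divide and form the hair shaft and inner root sheath under Wnt, hedgehog, bone morphogenetic protein (BMP) and ectodysplasin signals exchanged with the dermal papilla. The hedgehog ligand binds PTCH1, which releases the transducer SMO and activates GLI transcription factors, and both *Ptch1* and *Gli1* are themselves targets of the pathway. Wnt ligands stabilize beta-catenin, which acts with LEF1 and related factors. MSX2, DLX3 and FOXN1 take part in the differentiation of the hair shaft, and loss of FOXN1 causes the nude phenotype.

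In vehicle skin, *Dlx3* had the highest level of the 9 genes, with 40.9 ± 31.1 FPKM (SD, n = 3). *Gli1* followed at 25.7 ± 18.9 FPKM and *Ptch1* at 24.4 ± 16.0 FPKM (SD, n = 3). *Msx2* stood at 11.9 ± 10.6 FPKM, and both *Wnt10b* and *Lef1* at 6.49 FPKM, with SDs of 3.74 and 4.94. The lowest levels were those of *Shh* at 5.62 ± 4.95 FPKM, *Foxn1* at 4.96 ± 0.95 FPKM and *Dlx2* at 4.34 ± 3.68 FPKM. The SD was large against the mean for all genes except *Foxn1*, and neighbours in this order did not differ beyond their spread. In IMQ-treated skin the order was another one. *Dlx3* at 6.93 ± 3.40 FPKM, *Foxn1* at 5.36 ± 1.02 FPKM and *Ptch1* at 4.98 ± 1.17 FPKM (SD, n = 3) were then highest, with overlapping ranges, while *Shh* and *Dlx2* both stood at 0.044 FPKM.

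**Figure D1:**
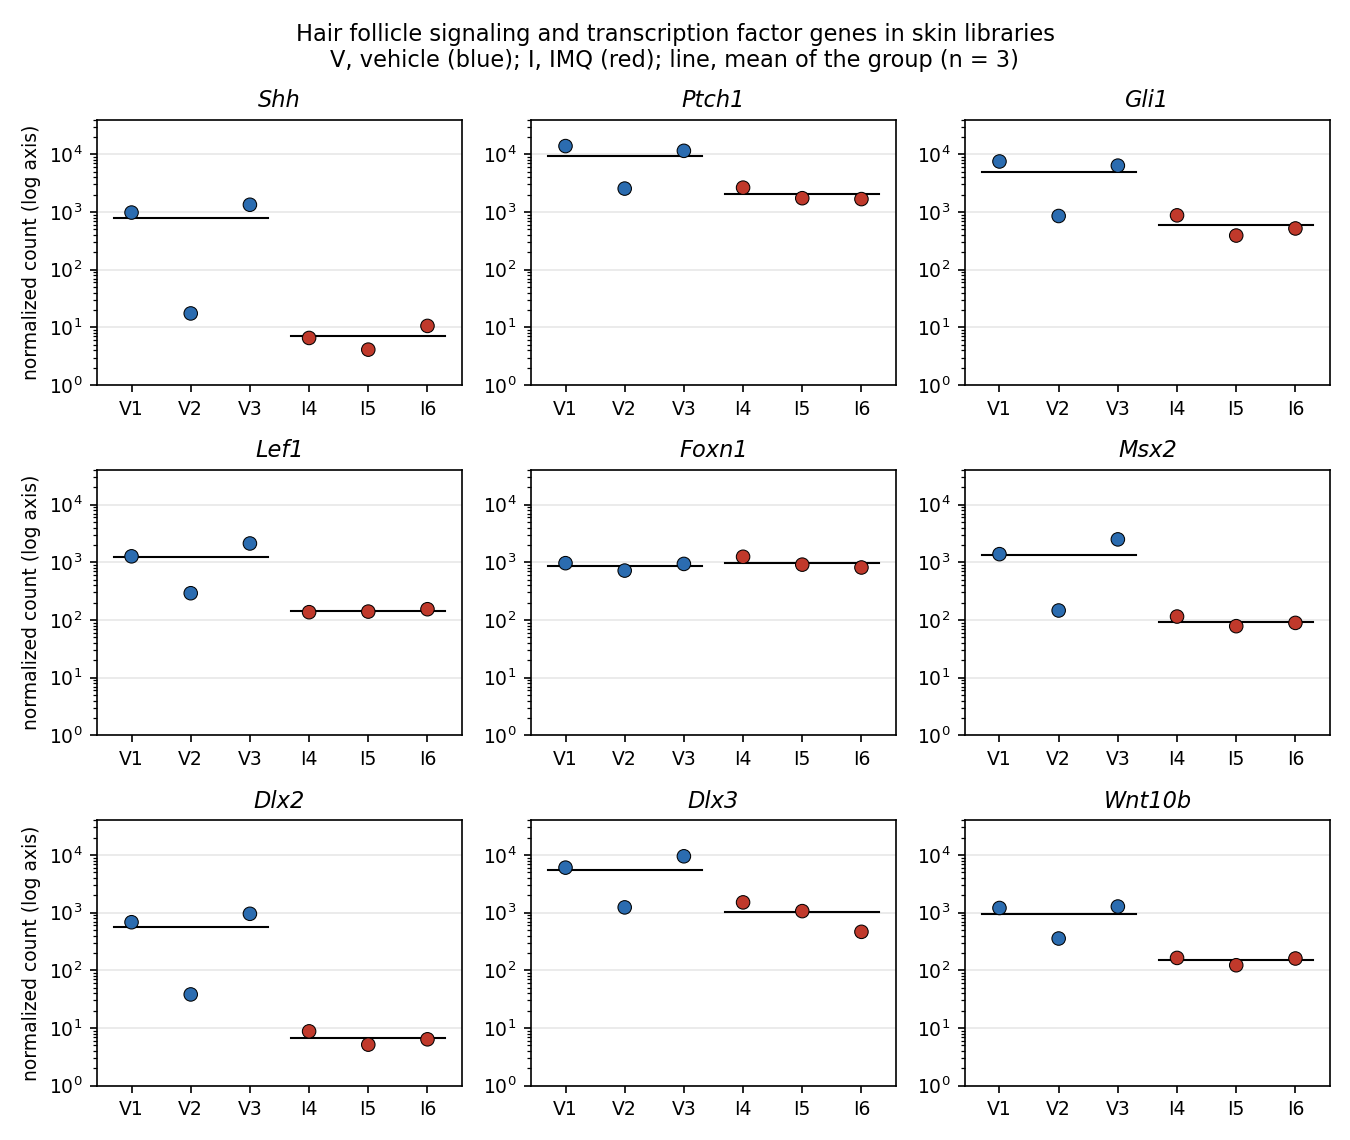
Normalized counts (log axis) of the 9 genes in each of the 6 skin libraries, with vehicle libraries (V) in blue, IMQ libraries (I) in red and a line at the mean of each group (n = 3). Vehicle libraries 1 and 3 lie above all other skin libraries in 8 of the 9 panels, and vehicle library 2 lies nearer to the IMQ libraries than to the other vehicle libraries there, whereas *Foxn1* has all 6 points at a similar height.

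The ligand gene *Shh* (Entrez Gene 20423, chromosome 5 from 28456840 to 28467101, minus strand, GRCm38) encodes sonic hedgehog, which matrix cells of the growing follicle secrete. Its normalized count was 978, 17.4 and 1336 in vehicle libraries 1, 2 and 3, and 6.56, 4.11 and 10.6 in IMQ libraries 4, 5 and 6. Every IMQ library was below every vehicle library, but vehicle library 2 reached only 1.78% of the lower of the other vehicle libraries. The log2 fold change, IMQ against vehicle, was -6.76 with a standard error of 1.52, and -7.33 without vehicle library 2. The IMQ level rests on few counts, and *9530036O11Rik* overlaps *Shh* in the annotation. The library kit marks strand, but the handling of strand in the counting is not given in the sources used here.

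*Wnt10b* (Entrez Gene 22410, chromosome 15 from 98770712 to 98778206, minus strand) encodes a Wnt ligand of the follicle epithelium. It had 1202 and 1275 normalized counts in vehicle libraries 1 and 3 and 355 in vehicle library 2, against 164, 122 and 160.1 in the IMQ libraries. The groups did not overlap, and vehicle library 2 was 2.39 times the mean of the IMQ libraries. IMQ and vehicle differed by a log2 fold change of -2.67 with a standard error of 0.48, and -3.06 without vehicle library 2. This was the smallest standard error among the 8 genes that had lower means after IMQ.

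The receptor gene *Ptch1* (Entrez Gene 19206, chromosome 13 from 63508328 to 63573460, minus strand) had 13896, 2547 and 11498 normalized counts in the vehicle libraries and 2645, 1736 and 1675 in the IMQ libraries. Vehicle library 2 lay within the range of the IMQ libraries, so the groups overlapped. The log2 fold change was -2.21 with a standard error of 0.58, and -2.65 without vehicle library 2. *Gli1* (Entrez Gene 14632, chromosome 10 from 127329882 to 127341579, minus strand), which encodes a transcription factor and is a readout of the pathway, had 7518, 853 and 6367 normalized counts in the vehicle libraries and 875, 391 and 519 in the IMQ libraries. Vehicle library 2 again lay just below the highest IMQ library. The log2 fold change of *Gli1* was -3.05 with a standard error of 0.77, and -3.54 without vehicle library 2. *Gli1* overlaps *Arhgap9* in the annotation, as *Msx2* does *Gm33763* and *Foxn1* does *Gm30367*. The ratio of *Gli1* to *Ptch1* counts was 0.54, 0.33 and 0.55 in the vehicle libraries and 0.33, 0.23 and 0.31 in the IMQ libraries. Across the libraries, these targets of the hedgehog pathway therefore did not keep a constant ratio, and vehicle library 2 had that of IMQ library 4. *Ptch1* retained 4.98 FPKM in IMQ-treated skin where *Shh* had 0.044 FPKM.

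*Lef1* (Entrez Gene 16842, chromosome 3 from 131110297 to 131224357, plus strand) encodes a partner of beta-catenin in the transcription of Wnt targets. Its normalized count was 1270.35, 291 and 2121 in the vehicle libraries and 137, 139.9 and 154 in the IMQ libraries. The IMQ libraries were close to each other, and vehicle library 2 was 2.03 times their mean. This gave a log2 fold change of -3.10 with a standard error of 0.66, and -3.56 without vehicle library 2.

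Among the homeobox genes, *Msx2* (Entrez Gene 17702, chromosome 13 from 53466881 to 53472780, minus strand) had 1385, 146 and 2497 normalized counts in the vehicle libraries and 115, 78.2 and 89.1 in the IMQ libraries. The groups did not overlap, but vehicle library 2 exceeded the highest IMQ library by a factor of only 1.27. Its log2 fold change was -3.84 with a standard error of 0.92, and -4.37 without vehicle library 2. *Dlx2* (Entrez Gene 13392, chromosome 2 from 71543408 to 71546754, minus strand) had 681, 38.2 and 954 normalized counts in the vehicle libraries and 8.74, 5.14 and 6.36 in the IMQ libraries. For this gene, vehicle library 2 kept the largest distance from the IMQ libraries, at 5.66 times their mean. The log2 fold change of *Dlx2* was -6.35 with a standard error of 1.22, and -6.90 without vehicle library 2. *Dlx3* (Entrez Gene 13393, chromosome 11 from 95120117 to 95125296, plus strand), which is also expressed in differentiating interfollicular epidermis, had 6021, 1232 and 9472 normalized counts in the vehicle libraries and 1505, 1061 and 464 in the IMQ libraries. Vehicle library 2 lay between IMQ libraries 4 and 5, and IMQ library 6 was lowest. The log2 fold change of *Dlx3* was -2.46 with a standard error of 0.75, and -2.94 without vehicle library 2.

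*Foxn1* (Entrez Gene 15218, chromosome 11 from 78357577 to 78386783, minus strand) differed in pattern from the other 8 genes. Its normalized count was 966, 719 and 938 in the vehicle libraries and 1248, 911 and 813 in the IMQ libraries. The groups overlapped, vehicle library 2 was the lowest of all 6 libraries, and its value was 76.6% of the lower of the other vehicle libraries. Its log2 fold change was 0.18 with a standard error of 0.20, and 0.06 without vehicle library 2. FOXN1 acts in the hair follicle and in suprabasal cells of the interfollicular epidermis, and bulk skin does not tell these cells apart. Fewer cells of a type and less RNA per cell cannot be told apart in bulk samples either.

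Over the 9 genes, the median log2 fold change was -3.05, and -3.54 without vehicle library 2, against -0.01 over all 20512 genes tested. Every IMQ library was below every vehicle library for 5 of the 9 genes (*Shh*, *Lef1*, *Msx2*, *Dlx2* and *Wnt10b*) and for 13.3% of all genes tested. Vehicle library 2 was the lowest vehicle library for all 9. In edgeR's quasi-likelihood test 6.74% of all genes tested had an adjusted p under 0.05, 4.05% higher and 2.69% lower. The same threshold was passed by 4 of the 9 genes, all lower, by 8 without vehicle library 2, and by 0 without any other single library. It was passed by 8 with DESeq2, by 2 on the log2(FPKM + 0.01) scale or without a filter on low counts, and by 0 with limma-voom or on the log2(FPKM + 1) scale. Since the genes were selected on this contrast, nothing is read from these numbers.

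**Figure D2:**
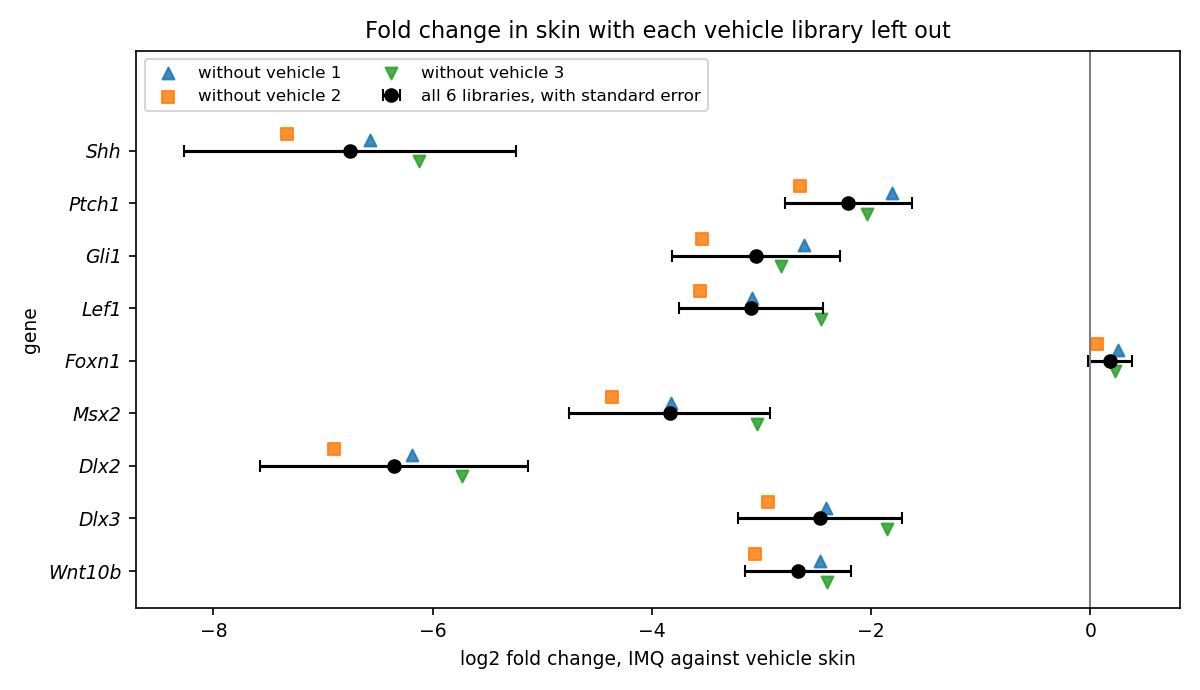
Log2 fold change of the 9 genes, IMQ against vehicle skin, with its standard error over all 6 libraries (black) and with vehicle library 1, 2 or 3 left out. For the 8 genes with lower means after IMQ, the value moved away from 0 without vehicle library 2 (squares) and towards 0 without vehicle library 1 or 3, and no value crossed 0, while *Foxn1* stayed between 0.06 and 0.25 in these fits.

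Across the 6 skin libraries, the log2 normalized counts of the 8 genes without *Foxn1* had Pearson correlations of 0.904 to 0.997 in their 28 pairs. The 8 pairs with *Foxn1* had correlations from -0.04 to 0.29. These values rest on 6 libraries that fall far apart, with vehicle libraries 1 and 3 high for each of the 8 genes, and are a description. Of 15758 other genes ranked by their likeness to the mean profile of the 9 genes, 800 had a Pearson correlation above 0.9 and 428 below -0.9. *Dlx1* was nearest (Pearson correlation 0.999). *Dlx1*, the neighbour of *Dlx2* on chromosome 2, had 258, 9.81 and 312 normalized counts in the vehicle libraries and 13.1, 4.11 and 3.18 in the IMQ libraries. The other 9 of the 10 genes most alike were *Arhgef19*, *Gtpbp1*, *Gli2*, *Bcl7a*, *Padi3*, *St6gal2*, *Zfp618*, *Slc6a17* and *Chd3*, with correlations of at least 0.992. They included the hedgehog effector gene *Gli2* and *Padi3*, whose enzyme modifies proteins of the inner root sheath and hair shaft. *Padi3* had 999 and 1273 normalized counts in vehicle libraries 1 and 3, and between 6.36 and 18.6 in the other 4 skin libraries. A correlation takes no account of the size of a change, which was -0.22 on the log2 scale for *Gtpbp1* and -6.10 for *Padi3*.

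Stretches upstream of 3 of the genes are shown because they differ in the skin pattern above. *Msx2* and *Dlx2* were low in vehicle library 2 and in the IMQ libraries, and *Foxn1* was not. The sequences are from RefSeq (GRCm38.p6), whose promoter windows (250 bases before to 50 after the start) were matched for 6 of the 9 genes. The *Msx2* and *Dlx2* stretches are the 250 bases before the start, chr13:53472781-53473030 and chr2:71546755-71547004. The *Foxn1* stretch is 30 bases at chr11:78386620-78386649, inside the annotated gene, whose longest form starts further upstream. All are on the minus strand, written 5′ to 3′, and capitals mark the homeobox motif TAATTA, which reads the same on both strands.
Msx2: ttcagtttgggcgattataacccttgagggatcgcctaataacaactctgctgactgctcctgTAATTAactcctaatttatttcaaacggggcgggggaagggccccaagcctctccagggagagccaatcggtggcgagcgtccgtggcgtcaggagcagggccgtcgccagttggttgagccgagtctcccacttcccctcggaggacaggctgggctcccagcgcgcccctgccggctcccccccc
Dlx2: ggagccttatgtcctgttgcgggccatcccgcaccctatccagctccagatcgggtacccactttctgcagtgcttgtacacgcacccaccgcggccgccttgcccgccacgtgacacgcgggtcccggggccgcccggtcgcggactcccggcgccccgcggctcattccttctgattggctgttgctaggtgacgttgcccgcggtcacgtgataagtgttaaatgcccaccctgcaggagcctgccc
Foxn1: aagctgatatcaTAATTAttggctcaccca
The motif TAATTA was found 187 bases before the start of *Msx2* and 29 bases before that of *Foxn1*, and in 5.29% of all 32851 windows. It was thus present in a gene that had lower means after IMQ and in the gene that did not. The GLI motif GACCACCCA (0.253% of all windows) and the TCF/LEF motifs CTTTGAT (3.73%) and CTTTGAA (5.14%), searched on both strands, had no match in the windows of these 6 genes. This says only that those letters are not in these windows.

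The other genes of the same pathways were examined in the skin by edgeR's quasi-likelihood fit, with p-values adjusted by Benjamini-Hochberg over the 20512 genes tested, of which 6.74% were called. Of 130 pathway and hair transcription factor genes tested, 32 were called, 27 lower and 5 higher, and the median log2 fold change was -0.61. The number called was 59 without vehicle library 2 and 20 without vehicle library 3. It was 4 without vehicle library 1, and 8, 3 and 9 without IMQ library 4, 5 and 6. Vehicle library 2 was nearer to the mean of the IMQ libraries than to either other vehicle library for 57 of the 130 genes (43.8%) and for 37.9% of all genes tested, on the log2 scale. This was so for 9 of the 27 genes called lower (33.3%) and for 58 of all 552 genes called lower (10.5%). A call itself requires a small spread among the vehicle libraries.

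**Figure D3:**
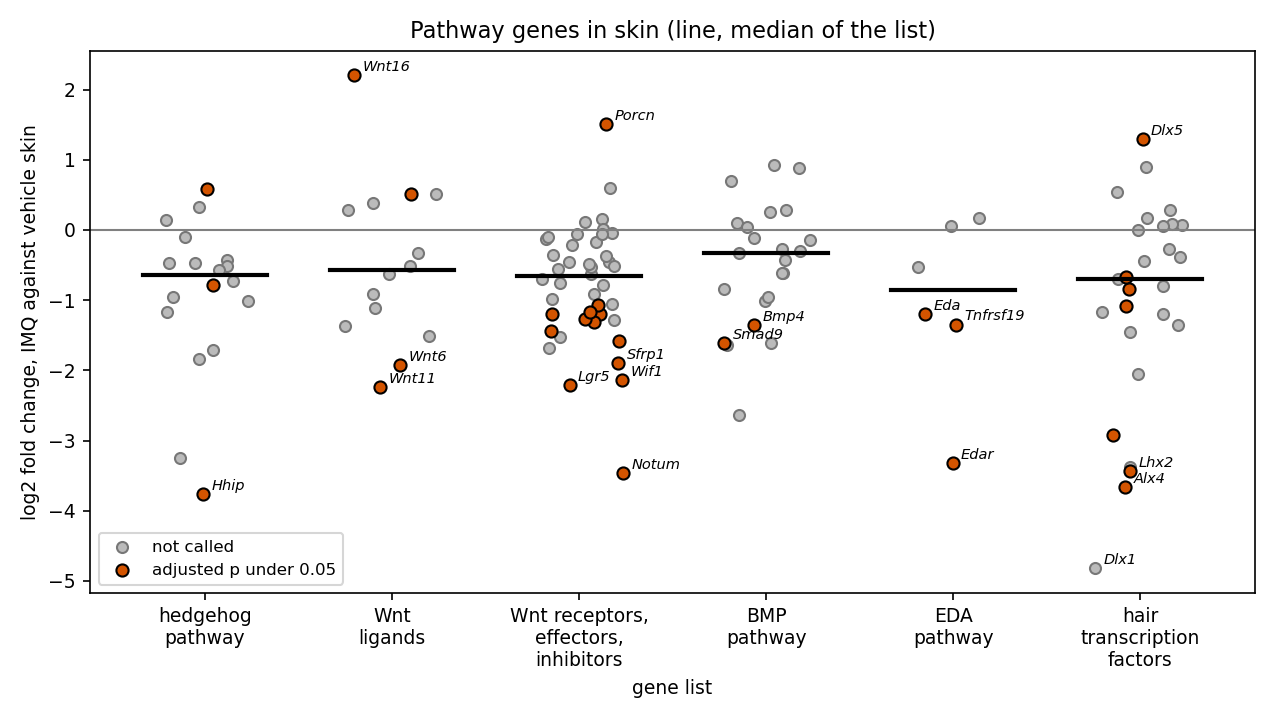
Log2 fold change, IMQ against vehicle skin, of the other genes of each pathway list (points), with genes at an adjusted p under 0.05 in orange and the median of each list as a line. All 6 medians and 27 called genes lie below 0, and 5 called genes lie above 0, among them *Wnt16*, *Porcn* and *Dlx5*.

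In the hedgehog list, 3 of 18 genes were called, and the median log2 fold change was -0.65. *Hhip*, which encodes a secreted and membrane-bound antagonist and is a target of the pathway, fell from 989, 254 and 1725 normalized counts in the vehicle libraries to 90.7, 63.8 and 63.6 (log2 fold change -3.77, standard error 0.68, adjusted p = 0.0255). *Evc* fell by 0.79 on the log2 scale, and the ligand co-receptor gene *Gas1* rose by 0.58 (adjusted p = 0.0442 and 0.0441). The latter 2 were named after their values were seen. *Gli2* had 3379, 905 and 3497 normalized counts in the vehicle libraries and 1008, 645 and 722 in the IMQ libraries (log2 fold change -1.71, adjusted p = 0.0904, not called). *Kif7* had a log2 fold change of -1.84 and was not called (adjusted p = 0.0537). *Gli2* thus had vehicle library 2 within the range of the IMQ libraries, as *Ptch1* and *Gli1* did, while *Hhip* had it above them.

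Of 14 Wnt ligand genes tested, *Wnt6* and *Wnt11* fell (log2 fold changes -1.93 and -2.24, adjusted p = 0.0366 and 0.0437) and *Wnt16* rose. *Wnt16* had 52.5, 46.9 and 100.2 normalized counts in the vehicle libraries and 390.1, 326 and 207 in the IMQ libraries (log2 fold change 2.20, adjusted p = 0.0248). *Wnt10a*, the paralog of *Wnt10b*, rose by 0.51 on the log2 scale (adjusted p = 0.0447) and was named after its value was seen. The sign of its change was opposite to that of *Wnt10b*. *Wnt5b* had a log2 fold change of -1.51 and was not called (adjusted p = 0.152).

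In the list of Wnt receptors, effectors and inhibitors, 13 of 42 genes were called, 12 of them lower. *Notum*, which encodes an extracellular enzyme that inactivates Wnt ligands, fell from 360.1, 230.1 and 378 normalized counts to 50.3, 13.4 and 24.4 (log2 fold change -3.46, standard error 0.49, adjusted p = 0.0123). *Lgr5*, which encodes an R-spondin receptor of follicle stem cells, fell by 2.21 on the log2 scale (adjusted p = 0.0340). The genes of the secreted Wnt inhibitors *Wif1* and *Sfrp1* fell as well (log2 fold changes -2.14 and -1.903, adjusted p = 0.0112 and 0.0305). *Porcn*, whose product is needed for the secretion of Wnt ligands, was the single called gene that rose, from 1120.2, 880.0 and 1131 to 3180.0, 2971 and 2728 normalized counts (log2 fold change 1.503, adjusted p = 0.00359), and was named after its value was seen. The called genes of this list thus included inhibitors and receptors of the pathway.

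In the BMP list 2 of 23 genes were called, a share near the 6.74% of all genes tested, and the median log2 fold change was -0.32. *Bmp4* had 1098, 1254 and 992 normalized counts in the vehicle libraries and 586, 358 and 362 in the IMQ libraries (log2 fold change -1.36, adjusted p = 0.0217), and *Smad9* fell by 1.61 on the log2 scale (adjusted p = 0.0114). *Bmp6* and *Bambi* had changes of -1.64 and -1.61 on the log2 scale that missed the threshold (adjusted p = 0.0792 and 0.0946). In the ectodysplasin list 3 of 6 genes were called, all lower. The receptor gene *Edar* fell from 352, 91.6 and 377 to 19.7, 20.6 and 41.4 normalized counts (log2 fold change -3.33, adjusted p = 0.0278). The ligand gene *Eda* fell by 1.19 and *Tnfrsf19* by 1.35 on the log2 scale (adjusted p = 0.0177 and 0.00432). For *Bmp4* and *Tnfrsf19*, vehicle library 2 was the highest vehicle library, unlike for the 9 genes described first. *Edaradd* had a log2 fold change of -0.52 and was not called (adjusted p = 0.0839).

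Of 27 other hair transcription factor genes, 7 were called, 6 of them lower. *Lhx2*, which acts in follicle stem cells, had 4747, 1323 and 5184 normalized counts in the vehicle libraries and 415, 266 and 357 in the IMQ libraries (log2 fold change -3.44, standard error 0.52, adjusted p = 0.0150). *Alx4* fell by 3.66 on the log2 scale (adjusted p = 0.0336). *Msx1*, the paralog of *Msx2*, had 798, 98.1 and 1413 normalized counts in the vehicle libraries and 73.2, 59.6 and 90.1 in the IMQ libraries, and *Dlx1* had a log2 fold change of -4.82. Both were not called (adjusted p = 0.0664 and 0.0680). *Dlx5*, named after its value was seen, rose by 1.30 (adjusted p = 0.0389), with 232, 246 and 166 normalized counts in the vehicle libraries and 709, 429.8 and 444 in the IMQ libraries. Its direction was opposite to that of *Dlx1*, *Dlx2* and *Dlx3*.

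Marker lists of the hair shaft and root sheath, melanocytes and dermal papilla were highest in vehicle libraries 1 and 3, as the 8 genes were. The list of bulge and hair germ cells, given below, was not. The summed level of 26 genes of the hair shaft and root sheath was 85144, 2616 and 136799 normalized counts in vehicle libraries 1, 2 and 3, and 952, 990.3 and 605 in the IMQ libraries. Between 19 and 26 of them had a count in a vehicle library, and between 14 and 18 in an IMQ library. Root sheath keratin gene *Krt71* had 20663 and 37206 normalized counts in vehicle libraries 1 and 3, and between 9.84 and 23.7 in the other 4 skin libraries. Other genes of the list, named after their values were seen, had other patterns. *Krt75* had 3970.3, 2028 and 13228 normalized counts in the vehicle libraries and 59.0, 230.3 and 99.7 in the IMQ libraries, and so made up most of the sum in vehicle library 2. *Krt32* had 164, 112 and 157 in the vehicle libraries and 6.56, 18.5 and 11.7 in the IMQ libraries. Of 12 genes of the list that were tested, 3 fell (*Krt28*, *Krt32* and *Krt75*), and *Krt84* rose by 3.15 on the log2 scale (adjusted p = 0.0366). Of 7 melanocyte genes the summed level was 17280, 4308 and 34029 in the vehicle libraries and 3885, 2169 and 1854 in the IMQ libraries. The dermal papilla list summed to 15716, 7230 and 24508 normalized counts in the vehicle libraries and 6705, 7857 and 7829.9 in the IMQ libraries, where *Lepr* was its single called gene (log2 fold change -2.10, adjusted p = 0.0287). The sums of these 3 lists were thus highest in vehicle libraries 1 and 3. Their part in the values of the 9 genes was not tested.

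Proliferation genes were also highest in vehicle libraries 1 and 3, whereas genes of bulge and hair germ cells and T cell genes were not. The sum of 10 proliferation genes was 48296, 15906 and 51047 normalized counts in the vehicle libraries, and between 25237 and 31245 in the IMQ libraries, so that vehicle library 2 was lowest. The 6 genes of bulge and hair germ cells summed to 79141, 104389 and 108915 normalized counts in the vehicle libraries. Their sum was between 61700 and 68402 in the IMQ libraries, and 1 of the 5 genes tested was called. This was *Krt15*, a keratin gene of basal and bulge cells. It had 25868, 44237 and 28298 normalized counts in the vehicle libraries and 6585, 6632 and 7389 in the IMQ libraries (log2 fold change -2.26, adjusted p = 0.00448). T cell genes summed to 1340.0, 2347 and 1546 in the vehicle libraries and 1892, 2689 and 4524 in the IMQ libraries.

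**Figure D4:**
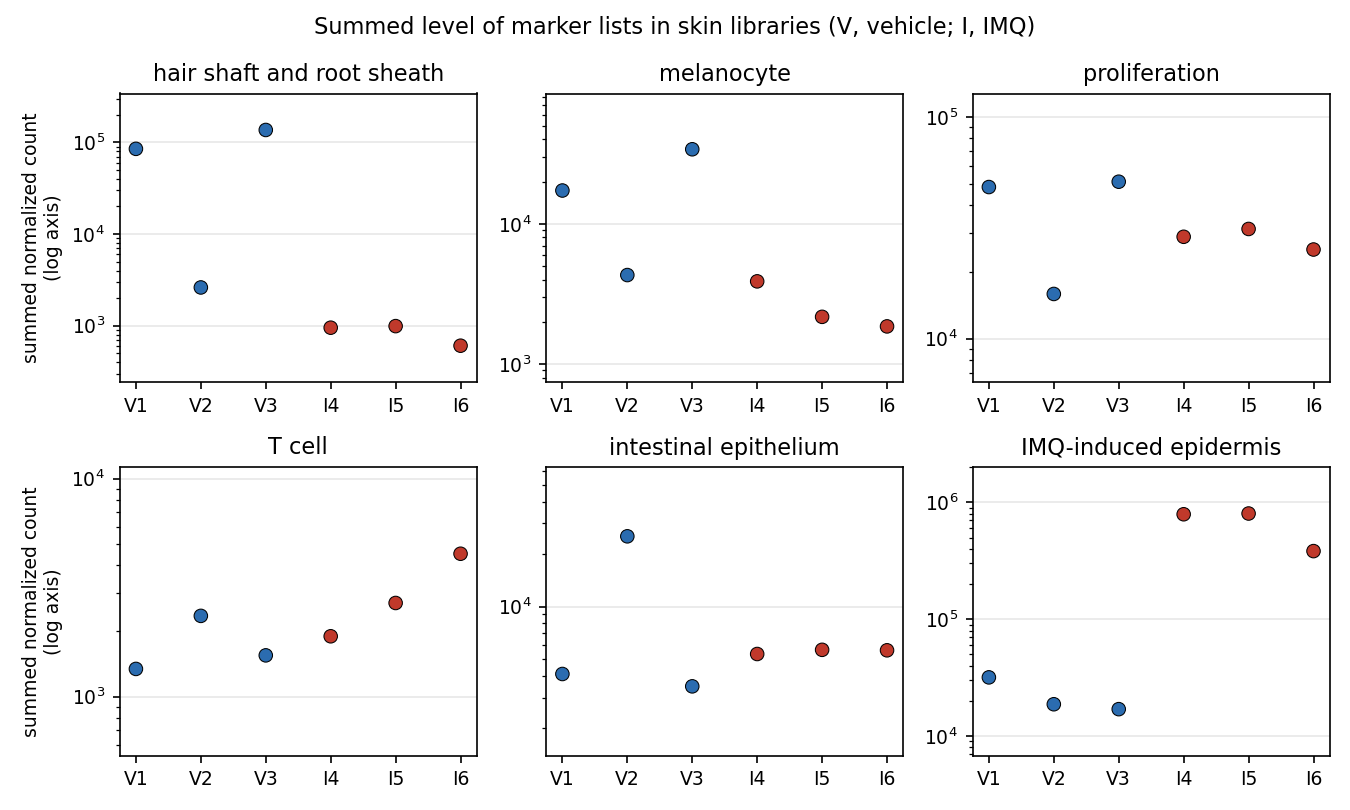
Summed normalized counts (log axis, a different range in each panel) of 6 marker lists in the skin libraries, vehicle (V, blue) and IMQ (I, red). Hair shaft and melanocyte sums are highest in vehicle libraries 1 and 3, the intestinal epithelium sum is highest in vehicle library 2 (25285 against at most 5640 in the other libraries), and the sum of IMQ-induced epidermal genes separates the groups with vehicle library 2 among the vehicle libraries.

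The small intestine was not used to choose the 9 genes, and IMQ was applied to the skin. Of the 9 genes, 4 had a count in every small intestine library and were tested, and 0 were called in edgeR's quasi-likelihood test, against 2.95% of the 19965 genes tested. *Ptch1*, which has a role in signaling from the intestinal epithelium to the mesenchyme, had 2992, 3217 and 2706 normalized counts in the vehicle libraries and 2609.9 and 1940.4 in the IMQ libraries. Its log2 fold change was -0.38 with a standard error of 0.16 (adjusted p = 0.403). *Gli1* had 369.9, 489 and 314 normalized counts in the vehicle libraries and 371 and 186 in the IMQ libraries, and the groups overlapped (log2 fold change -0.48, standard error 0.34, adjusted p = 0.675). *Lef1* had between 26.2 and 46.2 normalized counts in the vehicle libraries and 24.5 and 9.98 in the IMQ libraries (log2 fold change -0.94, standard error 0.48, adjusted p = 0.524). *Wnt10b* was near the limit of detection, with 3.63 to 10.2 normalized counts in all 5 libraries (log2 fold change -0.32, standard error 0.53, adjusted p = 0.893), and its sign turned without IMQ library 10 (0.22). The approximate 95% intervals of the log2 fold change, not adjusted for the number of genes, were -0.70 to -0.07 for *Ptch1*, -1.15 to 0.18 for *Gli1*, -1.89 to 0.01 for *Lef1* and -1.36 to 0.73 for *Wnt10b*. An unadjusted p under 0.05 was reached by 1 of the 4 genes. Without a filter on low counts 8 of the 9 were tested, and DESeq2, limma-voom and the other alternatives also called 0, with no adjusted p for *Wnt10b* from DESeq2.

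The remaining 5 genes had few or no counts in the small intestine. *Msx2* had 0 counts in all 5 libraries, and *Foxn1* had 0 in all but IMQ library 10, which had 4.54 normalized counts. *Shh* had at most 16.3, *Dlx2* at most 14.1 and *Dlx3* at most 9.24 normalized counts in any library. Whether these genes responded to IMQ in the small intestine was not detectable at this depth. Of 115 other pathway genes tested there, 1 was called, *Runx1*, which rose by 1.54 on the log2 scale (adjusted p = 0.0142) and was named after its value was seen. The number called was 0 without IMQ library 10 and on both FPKM scales, and 4 with DESeq2 or without vehicle library 7.

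**Figure D5:**
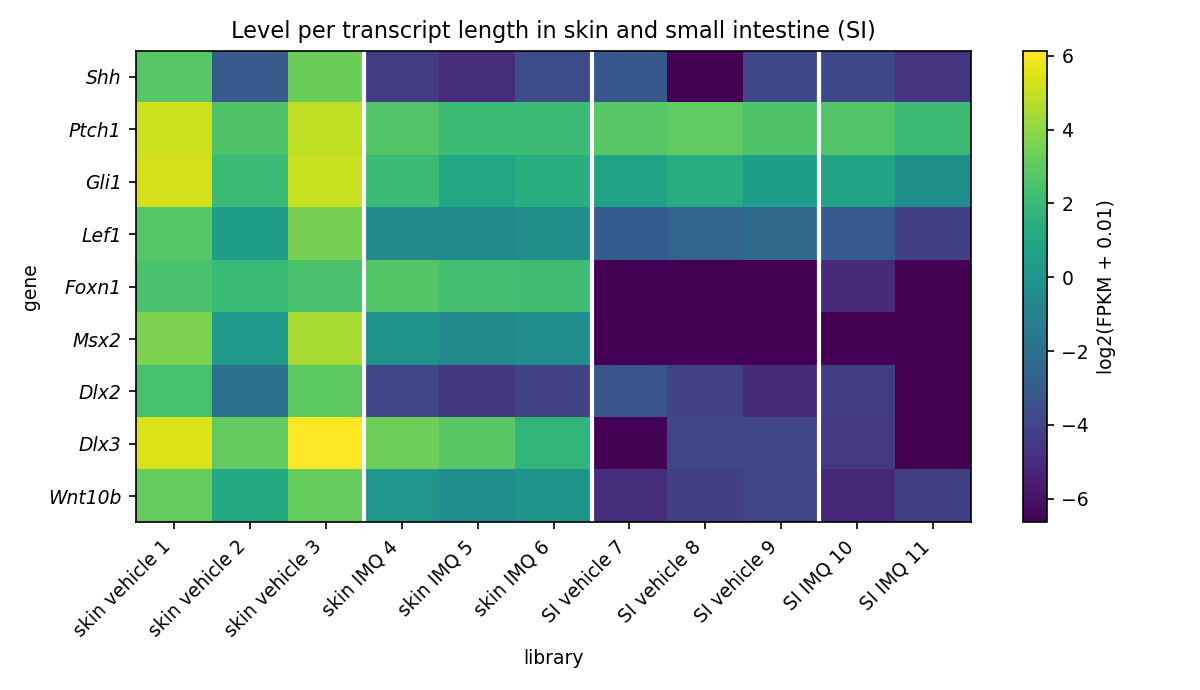
Level of the 9 genes as log2(FPKM + 0.01) in all 11 libraries, with white lines between the groups, where the darkest cells are 0 FPKM. *Ptch1* is the gene with the highest level in every small intestine library (4.29 to 8.08 FPKM) and *Gli1* the next (0.817 to 2.45 FPKM), and the other 7 genes stay at or below 0.206 FPKM there.

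Vehicle skin was compared with vehicle small intestine, a difference that did not enter the choice of the genes, although the skin libraries did. All 9 genes were tested and 8 were called higher in skin, where 58.1% of 19888 genes were called and 29.2% were called higher. *Shh*, *Foxn1*, *Msx2* and *Dlx3* had 0 counts in at least 1 vehicle small intestine library and passed the filter on low counts through the skin, where they are high. *Wnt10b* (4 to 11 counts in vehicle small intestine) and *Dlx2* (4 to 13) passed it through the skin as well. Nothing is read from the calls of any of these genes under that filter. With a count required in every library, 5 genes were tested and 4 were called by edgeR. These were *Gli1*, *Lef1*, *Dlx2* and *Wnt10b* (adjusted p = 0.00551, 9.30e-04, 0.00455 and 9.20e-05). Under the first filter, the log2 differences of *Dlx3* and *Wnt10b* were 9.48 and 6.57 (standard errors 1.10 and 0.64). *Lef1* had a log2 difference of 4.81 (standard error 0.75, adjusted p = 0.00156). *Gli1* and *Dlx2* had log2 differences of 3.28 and 5.71 (standard errors 0.74 and 1.23), with an adjusted p of 0.00789 for *Gli1*. *Msx2* and *Foxn1* had 0 counts in all 3 vehicle small intestine libraries. Their means in skin were at least 318-fold and at least 210-fold higher than a floor of 3 counts per library. In skin vehicle library 2, the level was at least 36.2-fold above that floor for *Msx2* and at least 178-fold for *Foxn1*.

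*Shh* and *Ptch1* stood apart from the other genes in this comparison. *Shh* had 888, 16.6 and 1210.2 normalized counts in vehicle skin and 19.1, 0 and 11.97 in vehicle small intestine, so that skin vehicle library 2 lay within the range of the small intestine. The log2 difference of *Shh* was 6.09 with a standard error of 1.61. Nothing is read from its call, which was lost without small intestine library 8 or 9 or with limma-voom. *Ptch1* had 12621, 2417 and 10413 normalized counts in vehicle skin and 3520.4, 3766 and 3188 in vehicle small intestine, so skin vehicle library 2 was below all 3 small intestine libraries. It was not called (log2 difference 1.28, standard error 0.54, adjusted p = 0.0810). Without skin vehicle library 2 the difference was 1.72 and was called (adjusted p = 1.08e-04), as it was with DESeq2 (adjusted p = 0.0242). Nothing is read from the call of *Dlx2* under the first filter either, which was lost with limma-voom (adjusted p = 0.0559). The count of genes called higher and lower in skin was 5813 and 5737, and 8905 and 3969 on the FPKM scale with a pseudocount of 0.01, where the median log2 difference of all genes was 0.48, against 0.03 in the counts. The direction of all 9 genes was the same on both scales.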

How the data were processed

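RNA of 6 skin and 5 small intestine samples was sequenced as paired-end reads from a stranded mRNA kit. Reads were mapped by the authors with HISAT2 2.1.0 against mm10 and quantified with StringTie 2.1.3b, and they deposited a table of read counts without normalization. The same table holds the FPKM computed by the authors, which is scaled by transcript length and library size, and the TPM deposited by the authors, which was not used. The treatment of strand and of reads that match several genes is not given in the sources used here.

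Groups were taken from the sample annotation. Genes counted at least 1 time in each library of a tissue were normalized by relative log expression and tested with edgeR 4.0.16 (R 4.3.3), using the quasi-likelihood test with Benjamini-Hochberg adjustment and a threshold of 0.05. Tissues were compared after the filterByExpr filter. Python 3.11.15 was used for the summaries, and the fitting steps were tested on simulated counts. Standard errors were obtained from the F statistic and the log2 fold change. Folds against groups without counts were taken against 3 counts per library, which covers counting error only. Precision is set by the spread between samples, and by depth where a gene has few counts.

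The 9 genes and all lists were chosen with earlier results of these data known. The genes named are the 9 genes, from each list up to 4 genes with the largest absolute log2 fold change in skin among those whose mean normalized count reached 50, and the 10 genes whose profile was most alike in skin. Other genes are marked as named after their values were seen. Of the genes under this rule, 1 is not reported here. *Krt85* was not analysed here. Positions are from the RefSeq annotation of GRCm38, matched by Entrez Gene identifier. Alternatives were normalization by upper quartile or TMM, DESeq2 1.42.0, limma-voom (limma 3.58.1), limma on log2(FPKM + 0.01) and log2(FPKM + 1), other filters on low counts, a minimum log2 fold change of 1 in size, and each library left out in turn.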

Additional observations from a re-analysis of the deposited data

How the results depend on the processing

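In the skin 1382 genes were called, and 32 of the pathway and hair transcription factor genes. DESeq2 called 3030 and 70 of these, and limma on log2(FPKM + 1) called 894 and 15. Leaving out single libraries, the numbers ranged from 258 (without IMQ library 5) to 2521 (without vehicle library 2) and from 3 to 59 (without the same libraries). In the small intestine 588 genes were called, 1206 with DESeq2, and between 294 (without IMQ library 10) and 801 (without vehicle library 7) with a library left out. The other alternatives kept these counts within 1.5 times, and all did so for the 11550 genes called between the tissues.

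For the 9 genes in skin, the sign of the log2 fold change was the same under every alternative, except that *Foxn1* ranged from -0.02 to 0.31 with a library left out. On the log2(FPKM + 1) scale, which understates changes of low genes, the values of *Shh*, *Lef1*, *Dlx2* and *Wnt10b* were from -2.13 to -1.80. In the small intestine, *Wnt10b* had a log2 fold change of 0.22 without IMQ library 10 and -1.04 without IMQ library 11, the range over the fits that left out a library. No paired analysis was possible because the annotation does not state which libraries came from the same mouse. The comparison of skin with small intestine therefore took no account of any mouse shared between the tissues.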
